A study of Mus musculus with 9 samples.

Results

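The 10 genes described here encode transcription factors of the dermal papilla and the neural crest: Tbx18, Tbx15, Prdm1, Trps1, Msx1, Msx2, Tfap2a, Tfap2b, Pax3 and Ets1. They were taken by name from 19938 genes measured by probe sets with 1 gene symbol, and all 10 were measured. Trps1 had 2 such probe sets, of which the one with the higher mean over all 9 arrays was used, and each other member had 1. RNA of 4 preparations of skin-derived precursor cells (SKPs) and 5 of sorted skin cells, from mice at postnatal day 4, was hybridised to Affymetrix Mouse Gene 1.0 ST arrays, 1 array each. SKPs are cells that grow as floating spherical colonies from dissociated skin, here collected at primary passage (replicates 3, 4, 5 and 6). The sorted cells came from back skin of Sox2:EGFP animals, a reporter of Sox2, and were taken as EGFP-positive and CD34-negative straight into RNAlater (replicates 2, 16, 17, 18 and 20). The labels give neither the strain of the SKP mice nor how many animals went into a preparation. Culture, sorting and the choice of cells differ together between the groups, and their effects cannot be told apart.

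The dermal papilla is a condensed group of mesenchymal cells under each hair bulb that instructs the epithelium around it, and Sox2 marks papilla cells of many follicles in neonatal skin. The neural crest is the embryonic population that gives rise to melanocytes and Schwann cells of the skin and to dermis of the face. Tbx18, Tbx15, Prdm1 and Trps1 are known from papilla and dermis, the Msx homeobox factors act downstream of BMP signals, and the AP-2 factors Tfap2a and Tfap2b, with Pax3 and Ets1, belong to the gene network of the crest. Several of these factors are also active outside these lineages: Msx2 in the hair matrix, Tfap2a in keratinocytes and Prdm1 in sebaceous and blood cells.

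The AP-2 and Msx pairs are shown first, because the 2 genes of each pair changed unequally between the groups. The sequences are the 250 bases before a start of each gene in RefSeq, 5′ to 3′ on the gene's strand, with matches to the motifs searched in capitals.
Tfap2b (GRCm38.p6, chr1:19211804-19212053, + strand): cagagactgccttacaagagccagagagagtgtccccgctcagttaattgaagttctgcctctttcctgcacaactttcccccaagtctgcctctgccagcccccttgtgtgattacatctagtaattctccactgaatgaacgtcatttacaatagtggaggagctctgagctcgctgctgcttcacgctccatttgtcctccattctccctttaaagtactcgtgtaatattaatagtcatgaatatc
Tfap2a (GRCm38.p6, chr13:40734921-40735170, - strand): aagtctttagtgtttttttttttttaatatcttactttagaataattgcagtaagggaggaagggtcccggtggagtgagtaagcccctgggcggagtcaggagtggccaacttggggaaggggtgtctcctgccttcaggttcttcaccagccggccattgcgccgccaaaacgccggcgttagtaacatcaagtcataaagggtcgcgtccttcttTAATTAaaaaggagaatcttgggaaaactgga
Msx2 (GRCm38.p6, chr13:53472781-53473030, - strand): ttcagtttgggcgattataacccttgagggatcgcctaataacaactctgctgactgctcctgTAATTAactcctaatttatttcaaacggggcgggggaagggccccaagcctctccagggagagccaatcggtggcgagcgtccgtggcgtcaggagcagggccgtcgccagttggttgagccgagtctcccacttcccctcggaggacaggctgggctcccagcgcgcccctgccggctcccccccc
Msx1 (GRCm38.p6, chr5:37824586-37824835, - strand): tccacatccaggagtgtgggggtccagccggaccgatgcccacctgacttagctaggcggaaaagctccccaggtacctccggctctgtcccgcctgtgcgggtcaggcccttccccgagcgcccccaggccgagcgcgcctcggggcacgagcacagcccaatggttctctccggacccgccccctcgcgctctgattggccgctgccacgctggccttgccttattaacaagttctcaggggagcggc
The motifs were TAATTA, a core read by Msx homeodomains, GCCNNNGGC for AP-2, AGATAA for GATA-type zinc fingers, TCACACC for T-box factors and CCGGAAG for Ets factors, on both strands. Of these only TAATTA was found, once each in the windows of Msx2 and Tfap2a, and 4.84% of 32851 such windows hold it. The table holds another start of Tfap2a and windows of Tbx18 and Prdm1, in which none of the 5 motifs was found. The other 4 motifs occur in 13.7% (AP-2), 9.99% (GATA), 3.33% (T-box) and 6.91% (Ets) of windows. These matches describe letters only.

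Values are log2 levels, and a difference of 1 is a 2-fold change. As a low reference, the 1027 olfactory receptor genes, which are little transcribed in skin, had a 95th percentile of 5.95 to 6.26 on the 9 arrays, and values at or under it were not told from background. Sox2, on which the cells were sorted, was at 5.78 to 6.41 in SKPs. It was at 8.24 to 8.61 on sorted replicates 16, 17 and 18, and higher, at 9.25 and 8.97, on replicates 2 and 20. Cd34, sorted against, was at 11.14 to 11.62 in SKPs and at 7.31 to 7.82 on sorted replicates 16, 17 and 18, but at 10.19 and 10.27 on replicates 2 and 20. Replicates 2 and 20 also stood apart in marker genes of several cell types, given further on, so results are given with and without them. In bulk RNA, fewer cells of a type and less RNA per cell cannot be told apart.

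SKPs had lower levels of 7 of the 10 factors than the sorted cells and higher levels of 0, by limma with Benjamini-Hochberg adjustment over all genes (adjusted p under 0.05). Among all genes tested, 16.9% were called lower and 20.2% higher. At an unadjusted p under 0.05, 8 were lower and 0 higher. The 7 were Tfap2b, Trps1, Msx2, Pax3, Prdm1, Tfap2a and Tbx15, and 6 of them, all but Tbx15, differed by at least 2-fold (6.25% of all genes). The median log2 difference of the 10 was -1.51, against 0.07 over all genes. In these 6 every SKP array lay below every sorted array, as in 15.5% of all genes. In 0 members did every SKP array lie above every sorted array (18.5% of all genes), and in the other 4 the groups overlapped. Without sorted replicates 2 and 20, 7 were lower and 1 higher (21.1% and 25.4% of all genes), with Msx1 joining the lower genes, Tbx15 leaving them and Tbx18 now higher.

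**Figure D1:**
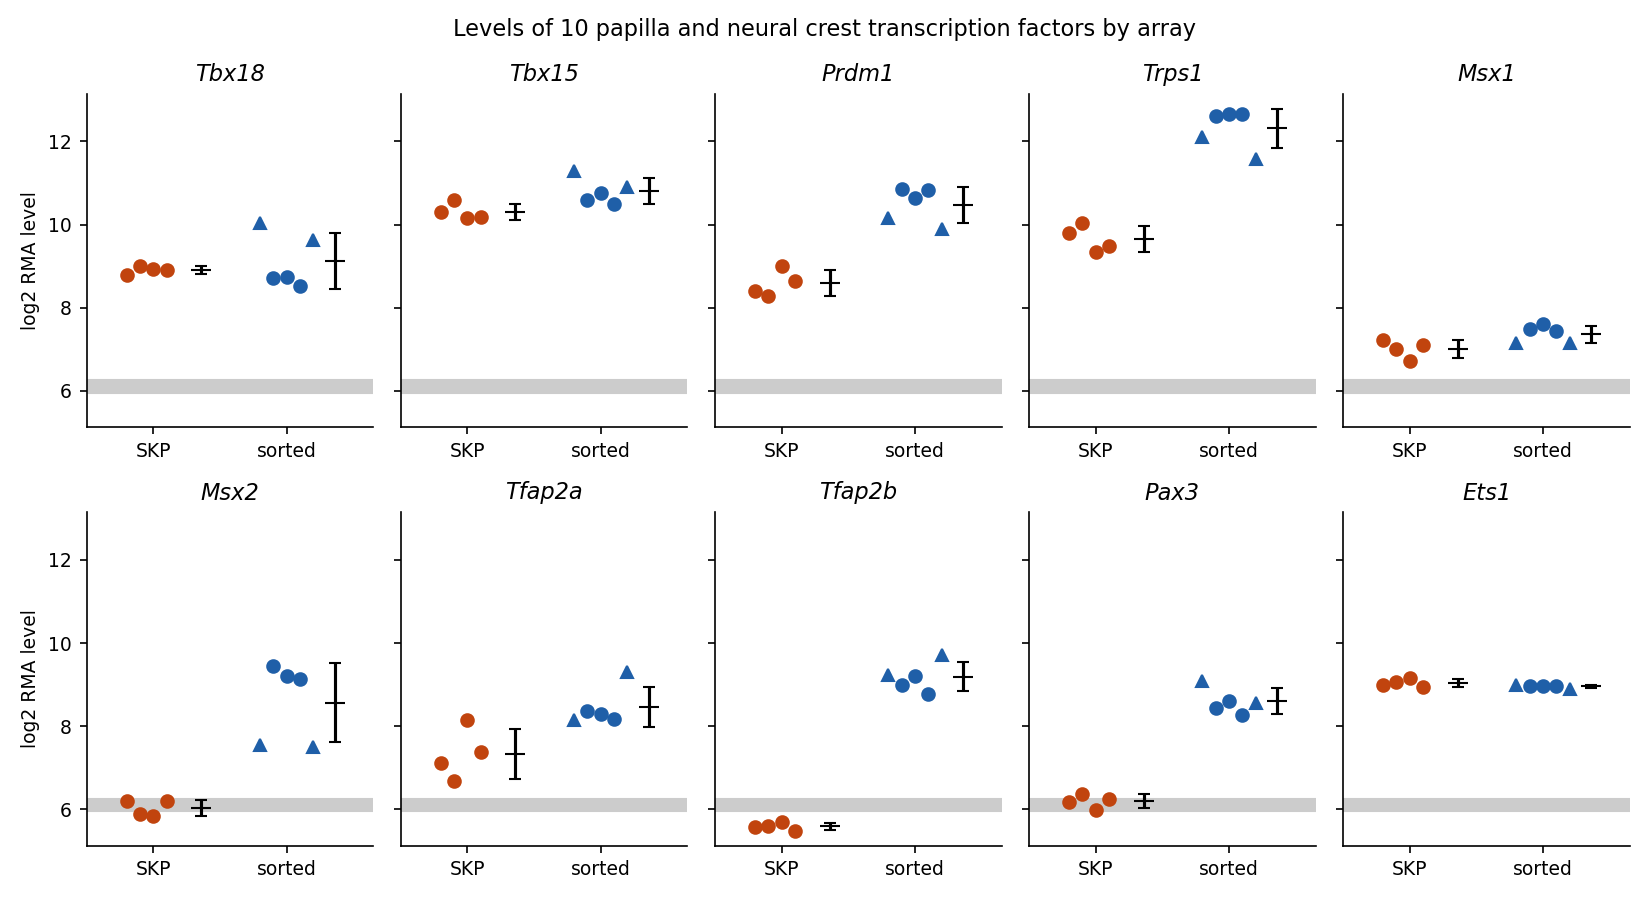
Level of each factor on every array (vertical axis, log2 RMA level; red, SKPs; blue, sorted cells; triangles, sorted replicates 2 and 20; black, mean and SD over 4 or 5 arrays; grey band, 95th percentile of olfactory receptor genes, 5.95 to 6.26). All SKP points of Tfap2b lie under the band, and those of Msx2 and Pax3 lie in or beside it, while the groups of Ets1 and Tbx18 overlap.

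Of the 2 T-box factors Tbx18 was not called and Tbx15 was lower in SKPs by a small amount. Tbx18, which marks papilla precursors in the embryo, was at 8.78, 9.001, 8.94 and 8.91 on SKP replicates 3, 4, 5 and 6. In the sorted cells it was at 10.03, 8.71, 8.73, 8.53 and 9.64 on replicates 2, 16, 17, 18 and 20. Replicates 2 and 20 thus lay above all SKP arrays and the other 3 below all of them. The means were 8.91 ± 0.09 (SD, n = 4) and 9.13 ± 0.67 (n = 5), with a log2 difference of -0.22 (SE 0.29, limma adjusted p = 0.589) and a 95% confidence interval from -0.88 to 0.43. Without sorted replicates 2 and 20 the sign turned: Tbx18 was 1.19-fold higher in SKPs (log2 0.25, SE 0.08, limma adjusted p = 0.0392), a call that rests on 3 sorted arrays. The SD of those 3 was 0.11, against 0.67 over all 5, so leaving out the arrays that differed also made the SE smaller.

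Tbx15, a factor of dermal patterning along the trunk, was at 10.30, 10.59, 10.17 and 10.19 in SKPs and at 11.29, 10.58, 10.77, 10.49 and 10.90 in the sorted cells, in the same replicate order. SKP replicate 4 lay above 2 sorted arrays, so the groups overlapped slightly. Tbx15 was 1.41-fold lower in SKPs (log2 -0.50, SE 0.16, limma adjusted p = 0.036). The call was lost without SKP replicate 3, 5 or 6 and without sorted replicate 17 or 20 (adjusted p up to 0.0975), after median centring of the arrays (0.069), and without both sorted replicates 2 and 20, where the log2 difference was -0.30 (0.066).

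Both repressors known from the papilla, Prdm1 and Trps1, were lower in SKPs. Prdm1, a zinc finger repressor also called Blimp1 that is found in forming papillae, was at 8.41, 8.28, 9.01 and 8.64 in SKPs. Its sorted levels were 10.15, 10.86, 10.63, 10.84 and 9.90. The highest SKP array was 0.883 below the lowest sorted array. Prdm1 was 3.7-fold lower (log2 -1.89, SE 0.23, limma adjusted p = 1.17e-04), and 4.56-fold without sorted replicates 2 and 20. Both groups were well above the low reference, so Prdm1 was detected in SKPs as well. SKP replicate 5 had the highest Prdm1 and also the highest mean of 9 myeloid markers, at 8.54 against 7.04 to 7.98 on the other SKP arrays. Without SKP replicate 5 the log2 difference was -2.03 (limma adjusted p = 2.43e-04). The part of myeloid cells in the level of Prdm1 was not tested.

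Trps1, a GATA-type zinc finger repressor whose loss causes sparse hair, was at 9.80, 10.03, 9.34 and 9.49 in SKPs. The sorted arrays held 12.10, 12.61, 12.67, 12.66 and 11.59. Replicates 16, 17 and 18 lay within a narrow range and replicates 2 and 20 below it, yet every sorted array was at least 1.565 above every SKP array. Trps1 was 6.33-fold lower in SKPs (log2 -2.66, SE 0.24, limma adjusted p = 1.79e-05), and 7.89-fold without sorted replicates 2 and 20. The second Trps1 probe set gave a closely similar difference, at 9.24 ± 0.33 in SKPs (SD, n = 4) against 11.88 ± 0.45 (n = 5), or -2.65 on the log2 scale. In SKPs Trps1 was still far above the low reference.

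The 2 Msx genes, which encode homeobox repressors induced by BMPs, differed from one another. Msx1 was at 7.22, 6.996, 6.71 and 7.11 in SKPs and at 7.14, 7.49, 7.60, 7.44 and 7.14 in the sorted cells. The groups overlapped on SKP replicate 3 and sorted replicates 2 and 20, and the log2 difference was -0.36 (SE 0.13, limma adjusted p = 0.0641, 95% confidence interval -0.66 to -0.05). Msx1 passed the threshold without SKP replicate 3 (adjusted p = 0.0496), without sorted replicate 2 (0.0429) or 20 (0.0349), without both of these (0.00801) and with array weights (0.00329).

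Msx2, which is active in the hair matrix and needed for normal hair shafts, was at 6.21, 5.89, 5.85 and 6.20 in SKPs, with 3 of the 4 arrays at or under the low reference. In the sorted cells it was at 7.54, 9.46, 9.20, 9.13 and 7.51. Replicates 2 and 20 lay far below the other 3 sorted arrays and still 1.300 or more above the highest SKP array. Msx2 was 5.77-fold lower in SKPs (log2 -2.53, SE 0.42, limma adjusted p = 9.46e-04). Without sorted replicates 2 and 20 it was 9.35-fold lower (log2 -3.22, SE 0.12). As the SKP level is about background, these folds are approximate. Msx2 varied most of the 10 factors in the sorted cells, over 1.95 on the log2 scale, and on the same arrays the mean of 11 hair shaft and matrix markers was 7.56 and 7.54 (replicates 2 and 20) against 9.75 to 9.97. The mean of 14 papilla markers was lower on replicates 2 and 20 too, at 10.46 and 9.90 against 11.83 to 12.05. The part of hair matrix cells or of papilla cells in the level of Msx2 was not tested.

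Both AP-2 factors of the crest fell, by unequal amounts. Tfap2b was at 5.57, 5.60, 5.70 and 5.49 in SKPs, under the low reference on all 4 arrays. On the sorted arrays it was at 9.23, 9.005, 9.21, 8.77 and 9.71, with no array near the SKP range. Tfap2b thus had the widest gap of the 10 factors, 3.072 between the highest SKP array and the lowest sorted array. It was 12.1-fold lower (log2 -3.60, SE 0.16, limma adjusted p = 1.98e-07) and 10.6-fold without sorted replicates 2 and 20, an approximate fold since SKPs were at background level.

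Tfap2a, which besides its role in the crest is expressed in epidermal keratinocytes, was at 7.11, 6.69, 8.15 and 7.39 in SKPs. The sorted levels were 8.15, 8.36, 8.29, 8.18 and 9.30. SKP replicate 5 came within 0.004 of sorted replicate 2, so the groups only just failed to overlap. Tfap2a was 2.18-fold lower in SKPs (log2 -1.13, SE 0.31, limma adjusted p = 0.0167), and 1.93-fold without sorted replicates 2 and 20. The call was lost without SKP replicate 3 (adjusted p = 0.0523) or 4 (0.0508). Unlike Tfap2b, Tfap2a was above the low reference on all SKP arrays. Sorted replicate 20, with the highest Tfap2a, also had the highest mean of 13 keratinocyte markers, 11.64 against 9.25 to 10.09 on the other sorted arrays. Sorted replicate 2, at 10.09, had the lowest sorted Tfap2a. SKP replicate 5, with the highest SKP Tfap2a, had the lowest keratinocyte mean (6.38) and the highest myeloid mean (8.54) of the SKPs. The part of these cells in the level of Tfap2a was not tested. Without sorted replicate 20 the log2 difference was -0.91 (limma adjusted p = 0.0191).

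Pax3, a paired box factor of the crest that is kept in melanocyte precursors, was at 6.17, 6.37, 5.99 and 6.26 in SKPs, with 2 of the 4 arrays at or under the low reference. Sorted arrays were at 9.09, 8.43, 8.61, 8.28 and 8.57. The groups were 1.906 apart at their nearest arrays. Pax3 was 5.27-fold lower (log2 -2.40, SE 0.16, limma adjusted p = 1.98e-06) and 4.73-fold without sorted replicates 2 and 20, again approximate for the low SKP level. Markers of the cells that use Pax3 were also lower in SKPs, where 16.9% of all genes were called lower: 7 of 9 melanocyte genes (77.8%) fell and 1, Mitf, rose, and 6 of 6 Schwann cell genes fell. Their share in the level of Pax3 was not tested.

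Ets1, an Ets-domain factor of migrating crest that endothelium and lymphocytes also express, was at 8.997, 9.06, 9.17 and 8.94 in SKPs and at 9.001, 8.96, 8.96, 8.96 and 8.90 in the sorted cells. The groups overlapped, and the log2 difference was 0.08 (SE 0.07, limma adjusted p = 0.399), with a 95% confidence interval from -0.08 to 0.24. The interval lies well within 2-fold in either direction. The deposited values of sorted replicates 16, 17 and 18 were identical for Ets1, so the SD of that group rests on few distinct values.

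**Figure D2:**
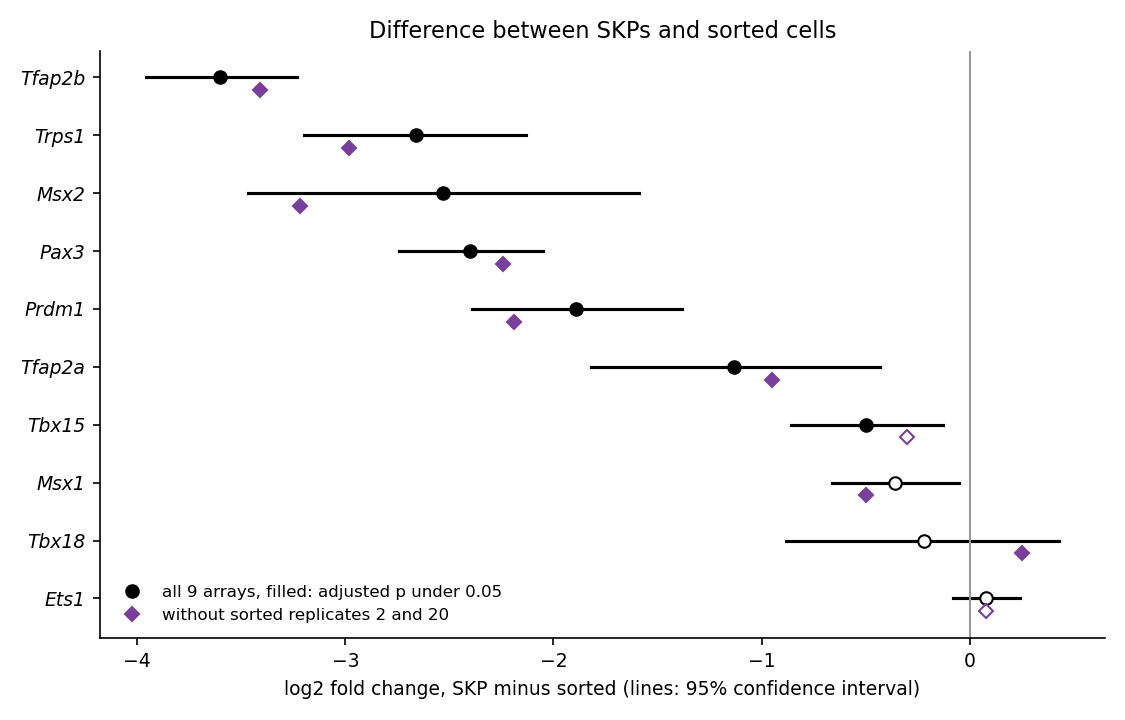
Log2 fold change of each factor, SKP minus sorted (horizontal axis; circles, all 9 arrays with 95% confidence intervals; diamonds, without sorted replicates 2 and 20; filled, limma adjusted p under 0.05). The circles of Tfap2b, Trps1, Msx2, Pax3 and Prdm1 lie beyond -1.5, and for Tbx18 the diamond lies on the other side of 0 from the circle.

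In 2 of 3 pairs of close relatives the genes changed unequally. The comparison used the difference of the 2 levels within each array, which does not depend on the scaling of arrays. Tfap2b minus Tfap2a was -1.54, -1.09, -2.45 and -1.90 in SKPs and 1.08, 0.64, 0.91, 0.59 and 0.41 in the sorted cells. The difference changed by -2.47 between groups, so Tfap2b fell 5.54-fold more than Tfap2a (exact permutation test, two-sided p = 0.0159, adjusted p = 0.0238 over 3 pairs). Msx2 minus Msx1 was -1.02, -1.10, -0.86 and -0.91 in SKPs and 0.39, 1.96, 1.60, 1.69 and 0.36 in the sorted cells, a change of -2.17 with the same exact p of 0.0159 (adjusted p = 0.0238). With 4 and 5 arrays 0.0159 is the smallest two-sided p these permutations can give. For Tbx18 minus Tbx15, with -1.52, -1.59, -1.23 and -1.28 against -1.26, -1.87, -2.04, -1.96 and -1.26, the groups overlapped and the change of 0.27 did not pass (exact permutation p = 0.19). Without sorted replicates 2 and 20 the groups of this pair did not overlap, and the change was 0.55 (exact permutation p = 0.0571, the smallest that 4 and 3 arrays can give). Msx2 and Tfap2b are at background level in SKPs, where a further fall would not be seen.

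**Figure D3:**
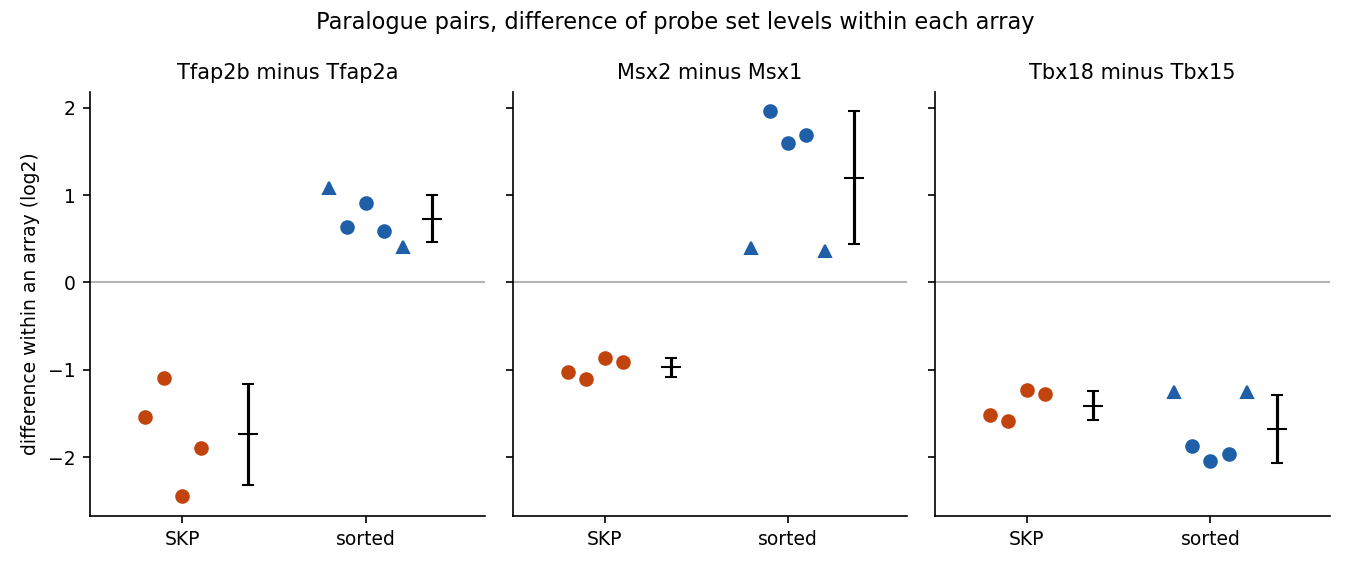
Difference of the log2 levels of 3 pairs of related genes within each array (vertical axis; red, SKPs; blue, sorted cells; triangles, sorted replicates 2 and 20; black, mean and SD). SKP and sorted arrays lie on opposite sides of 0 for the AP-2 and Msx pairs, and mix for the T-box pair.

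Within the sorted cells the factors took different orders over the arrays. Prdm1, Trps1, Msx1 and Msx2 were lower on both replicates 2 and 20 than on the other 3 sorted arrays, as were 26.1% of all genes. Tbx18, Tbx15 and Tfap2b were higher on both, as were 22.6% of all genes, although for Tfap2b the margin over replicate 17 was slight. Tfap2a, Pax3 and Ets1 followed neither order. The factors that are low and those that are high on these arrays both include papilla genes.

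Marker genes of several cell types moved with these differences. SKPs had means of 7.29 to 7.40 over 14 papilla markers, sorted replicates 16, 17 and 18 had 11.83 to 12.05, and replicates 2 and 20 had 10.46 and 9.90. Of these markers 13 were lower in SKPs (92.9%) and 0 higher, against 16.9% and 20.2% of all genes, and 3 were at or under the low reference on every SKP array. All 14 exceeded the low reference on every sorted array. Over 9 dermal fibroblast markers SKPs had means of 11.82 to 11.88, replicates 16, 17 and 18 had 10.45 to 10.49, and replicates 2 and 20 had 11.59 and 11.61. In SKPs 5 of these markers were higher (55.6%) and 1 lower (11.1%). Cd34, which was sorted against, is in this list and among those 5. Keratinocyte, pericyte, endothelial and melanocyte means were also higher on sorted replicates 2 and 20, where Tbx18 and Tbx15 were highest. These means were 10.09 and 11.64 against 9.25 to 9.42 (keratinocyte) and 9.80 and 10.24 against 9.23 to 9.69 (pericyte). They were 7.12 and 7.63 against 6.35 to 6.44 (endothelial) and 8.78 and 9.12 against 8.52 to 8.55 (melanocyte).

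Markers of epithelium were present in the sorted samples. All 13 keratinocyte markers were lower in SKPs, with means of 6.38 to 6.70 in SKPs and 9.25 to 11.64 in the sorted cells. All 13 exceeded the low reference on every sorted array. Of 11 hair shaft and matrix markers 8 were lower in SKPs and 0 higher, with means of 5.99 to 6.38 in SKPs, and 3 were at or under the low reference on every SKP array. Markers of pigment and glial cells had means of 8.52 to 9.12 (9 melanocyte genes) and 8.58 to 9.14 (6 Schwann cell genes) in the sorted cells and 6.97 to 7.22 and 6.31 to 6.75 in SKPs. Of 8 pericyte and smooth muscle markers 5 were lower and 0 higher, with means of 9.23 to 10.24 in the sorted cells and 7.39 to 7.48 in SKPs. Of 8 endothelial markers 2 were lower (25%) and 0 higher, against 16.9% and 20.2% of all genes. Without sorted replicates 2 and 20, 2 were lower and 3 higher, against 21.1% and 25.4% of all genes, and the median turned from -0.10 to 0.20. Of 9 myeloid markers 8 were higher (88.9%) and 0 lower. Shares called lower were 100% (keratinocyte), 72.7% (hair shaft and matrix) and 62.5% (pericyte and smooth muscle). The part of these cell types in the levels of the 10 factors was not tested.

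**Figure D4:**
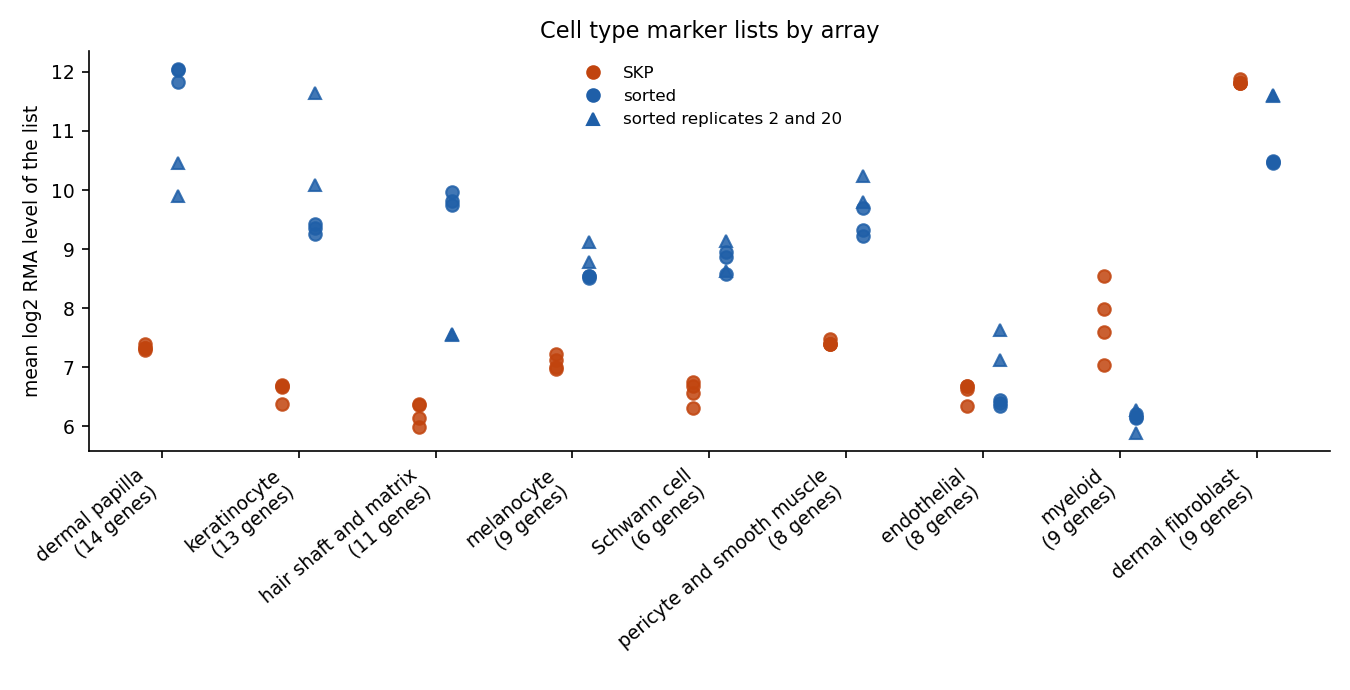
Mean log2 level of each marker list on every array (vertical axis; red, SKPs; blue, sorted cells; triangles, sorted replicates 2 and 20; number of genes under each name). Sorted replicates 2 and 20 lie below the other sorted arrays for papilla and hair shaft markers and above them for keratinocyte and fibroblast markers.

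Among family relatives of the 10 factors the shares called lower were 23.1% (T-box), 16.7% (AP-2, Msx and Pax) and 25.9% (Ets, Prdm and GATA), near the 16.9% of all genes, and 0%, 0% and 14.8% were called higher, against 20.2%. Of 13 other T-box genes 3 were lower and 0 higher, with a median log2 difference of -0.07. Without sorted replicates 2 and 20 the counts were 5 and 0, against 21.1% and 25.4% of all genes. The lower genes included Tbx5, a limb and heart factor, which was 2.67-fold lower (log2 -1.42, limma adjusted p = 0.0377; 4.46-fold without sorted replicates 2 and 20). These folds of Tbx5 are approximate since its SKP mean of 6.20 was about background, and its groups overlapped. Tbx6 was 1.68-fold lower. Of 12 other AP-2, Msx and Pax genes 2 were lower and 0 higher, with a median of 0.04. These were Tfap2c, another AP-2 factor of epidermis, at 7.95 ± 0.04 in SKPs (SD, n = 4) against 9.95 ± 0.69 (n = 5, limma adjusted p = 5.33e-04), and Pax1, which was 2.04-fold lower. The counts of 0 higher hold for the deposited scaling: 1 T-box gene was called higher after median centring and with array weights, and 1 gene of the AP-2, Msx and Pax list after quantile normalization and with array weights.

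Of 27 Ets, Prdm and GATA genes 7 were lower and 4 higher, with a median of 0.03. Gata3, a factor of the inner root sheath and epidermis, was 10.6-fold lower (limma adjusted p = 2.35e-05), an approximate fold since its SKP mean of 6.03 was about background, and Prdm11 was 2.05-fold lower. Elk3, an Ets factor, was 2.23-fold higher (limma adjusted p = 2.06e-04). Spi1, an Ets factor of myeloid cells, was 1.34-fold higher. This fold is approximate since its means of 5.98 in SKPs and 5.56 in the sorted cells were at background level. Without any single array only 1 or 2 genes of this list were called higher, so the count of 4 is not stable.

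Some other crest factors and most of the listed papilla and dermal factors were lower in SKPs. Of 22 crest factors 8 were lower (36.4%) and 1 higher (4.55%), against 16.9% and 20.2% of all genes, with a median of -0.25. Without sorted replicates 2 and 20 the counts were 11 and 2, against 21.1% and 25.4% of all genes. Id3 and Id1, inhibitors that BMP signals induce, were 4.93-fold and 3.57-fold lower, and Mitf, the melanocyte regulator, was 3.05-fold higher (limma adjusted p = 1.23e-06). Of 29 papilla and dermal factors 18 were lower (62.1%) and 5 higher (17.2%), with a median of -1.003. The Notch target Hey2 was 50.3-fold lower (limma adjusted p = 1.54e-07; 65.2-fold without sorted replicates 2 and 20), approximate folds since its SKP mean of 4.93 was under the low reference, and the Wnt effector Lef1 was 8.51-fold lower (13.4-fold without them). Hic1, a factor of dermal mesenchyme, was 3.96-fold higher and Tcf4 2.61-fold higher. The list includes Sox2, on which the cells were sorted. The frequencies of the lists were not tested against one another.

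Genes tied to the 10 factors as targets, by general knowledge, were lower in 12 of 21 cases (57.1%) and higher in 1 (4.76%), with a median of -0.89. Among all genes 16.9% were lower and 20.2% higher. The Wnt inhibitor Wif1 was 64.7-fold lower (102-fold without sorted replicates 2 and 20) and the basal keratin Krt5, which AP-2 factors regulate, 25.6-fold lower (16.4-fold without them). Mitf, a target of Pax3 in melanocytes, was higher, while Pax3 and 7 of 9 melanocyte genes were lower. Which cells held the Mitf RNA was not tested. Many of the 21 genes are markers of papilla, keratinocytes or melanocytes too. Over the 5 lists of related factors, 38 of 103 genes were lower (36.9%, against 16.9% of all genes), with a median of -0.18. In these lists 10 genes were higher (9.71%, against 20.2% of all genes). The count was 6 without sorted replicate 17 and 13 with array weights.

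**Figure D5:**
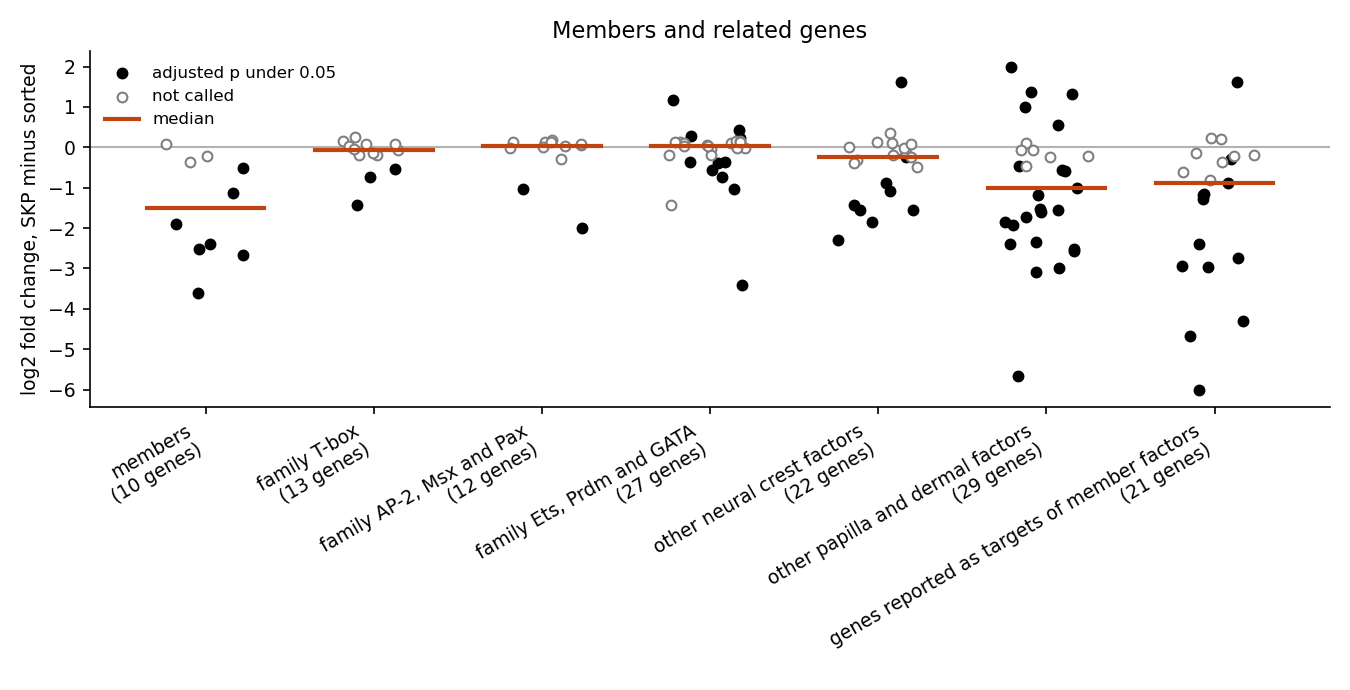
Log2 fold change of the 10 factors, of related factors in 5 lists and of genes reported as targets (vertical axis, SKP minus sorted; black, limma adjusted p under 0.05; open, not called; red line, median of the list). The medians of the 3 family lists lie between -0.07 and 0.04, those of the 10 factors, the papilla list and the targets between -1.51 and -0.89.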

How the data were processed

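The authors deposited 1 log2 value per probe set and array. RMA, Affymetrix Expression Console and limma are named, without versions, per the submitters' processing notes. The genome build behind the values is not given in the sources used here, so coordinates are printed for the RefSeq promoter windows only. RMA adjusts background, normalizes arrays by quantiles and summarises probes. Of 35556 probe sets, 21789 have 1 gene symbol in the platform annotation. A gene with several was represented by its brightest (19938 genes). No detection calls were used here, and the number of arrays limits the precision. Promoter windows were taken from RefSeq (GRCm38.p6), and 6 of the 10 members matched.

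SKP minus sorted was tested with limma 3.58.1 in R 4.3.3 (lmFit, eBayes, two-sided, Benjamini-Hochberg over all genes), after checks on simulated data. Pairs of genes were tested with exact permutation tests (scipy 1.17.1). The tests measure the spread between preparations, which are independent per the design text, though the labels do not give the animals in each. Sorted replicates 2 and 20 were both above the other sorted arrays in 22.6% of genes and both below in 26.1%. The tests do not model this grouping. The 10 members and all lists were chosen with earlier results of these data known. All members are named, and from each related list the 2 called genes with the largest fold in each direction. The alternatives were quantile normalization, median centring, removal of the dimmest 33.3% of genes, a mean over probe sets, trend and robust fitting, array weights, an adjusted p under 0.01, and leaving out each array or both sorted replicates 2 and 20. Background correction could not be varied on these summarised values.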

Additional observations from a re-analysis of the deposited data

Results flagged for a closer look

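Among the 10 factors and the 3 pairs, 1 value stood far from the others of its group: Tfap2a on sorted replicate 20, at 9.30 against 8.15 to 8.36 on the other 4 sorted arrays, with a gap of 0.82 of the whole range of the group. Chance sets off this criterion in about 1 of 20 groups, and 26 were examined.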

How the results depend on the processing

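Tfap2b, Trps1, Msx2, Pax3 and Prdm1 kept their direction and their call under all 17 alternatives, and Ets1 stayed uncalled with the same sign. The log2 difference of Tbx18 changed sign with array weights (0.14), without sorted replicates 2 and 20 (0.25) and without sorted replicate 2 (0.00), and ranged from -0.37 to 0.00 on leaving out single arrays. Tbx15 lost its call under 8 alternatives and Tfap2a under 3, and Msx1 gained one under 5. Between 5 and 8 members were called lower. The count called higher was 0, except 1 without sorted replicates 2 and 20. Of related factors, 38 were called lower, with 29 to 48 under the alternatives. Called higher were 10, against 6 at an adjusted p under 0.01 and 6 to 8 on leaving out single arrays. That count was 11 after median centring and 13 with array weights. The changes of the AP-2 and Msx pairs were -2.46 and -2.72 without sorted replicates 2 and 20 (adjusted p = 0.0571, with 0.0571 the smallest p that 4 and 3 arrays allow), and ranged from -2.69 to -2.24 and from -2.38 to -1.98 on leaving out single arrays. They missed the threshold without any 1 SKP array, where the smallest adjusted p for 2 pairs is 0.0536. No paired analysis was possible because the groups share no replicate number. Values at or under the low reference limit the folds of Tfap2b, Msx2, Pax3, Hey2, Gata3, Tbx5 and Spi1.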
